A study of Mus musculus with 12 samples.

Results

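miR-199a and miR-214, and miR-143 and miR-145, are microRNAs of clusters best known from mesenchymal cells such as fibroblasts and smooth muscle. The 5 mature forms described here, mmu-miR-199a-5p, mmu-miR-199a-3p, mmu-miR-214-3p, mmu-miR-143-3p and mmu-miR-145a-5p (written below without the species prefix), were taken by exact name from the 576 miRNA entries of an Agilent 1-colour array. They were measured in LLC1, a cultured mouse Lewis lung carcinoma line, in 4 groups of 3 arrays: untreated control cells, cells X-rayed once with 2 Gy, cells X-rayed once with 10 Gy, and cells whose total of 10 Gy was split into fractions, labelled 5x2 Gy. RNA was isolated 4 h after irradiation. All groups come from this 1 line, and replicates are biological by their labels, with no culture or day named.

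A microRNA is cut from a hairpin transcript, and either arm of the hairpin can be loaded into an Argonaute protein, which it guides to messenger RNAs that pair with its seed. The hairpins of miR-199a-2 and miR-214 are made from 1 long antisense transcript, Dnm3os, which the transcription factor Twist1 activates in the mouse. The miR-143 and miR-145 hairpins share another transcript, which is strongest in smooth muscle, and in the gut and in tumours miR-143 and miR-145 come mainly from the stroma rather than from the epithelium.

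In the RefSeq annotation of assembly GRCm38.p6, Mir199a-2 and Mir214 lie on chromosome 1 with 0 other genes between them, inside Dnm3os, which itself lies within Dnm3. A second copy, Mir199a-1, lies on chromosome 9 inside Dnm2, and Mir199b lies on chromosome 2 inside Dnm1. The mature sequences below were read from RefSeq for 3 of the 5 members, and are shown because they tell which probes can report on which locus. Capitals mark the seed, bases 2 to 8.
miR-199a-5p: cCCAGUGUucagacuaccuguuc
miR-199a-3p: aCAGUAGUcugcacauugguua
miR-214-3p: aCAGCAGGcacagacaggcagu
miR-199b-3p: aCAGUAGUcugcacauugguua
The first is made by both miR-199a loci. The second is made by both and is identical in all its 22 bases to the product of Mir199b, so its signal sums up to 3 loci on different chromosomes. miR-214-3p has 1 locus. The 3 members share no seed with each other. miR-214-3p shares its seed with miR-761, whose probes were detected on 0 of 12 arrays.

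The hairpins show how the arms sit in their precursors, with the mature arms listed by RefSeq in capitals.
Mir199a-2: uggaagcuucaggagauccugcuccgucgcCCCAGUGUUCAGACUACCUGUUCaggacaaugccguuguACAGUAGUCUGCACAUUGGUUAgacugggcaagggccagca
Mir199a-1: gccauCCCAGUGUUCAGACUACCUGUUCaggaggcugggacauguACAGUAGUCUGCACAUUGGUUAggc
Mir214: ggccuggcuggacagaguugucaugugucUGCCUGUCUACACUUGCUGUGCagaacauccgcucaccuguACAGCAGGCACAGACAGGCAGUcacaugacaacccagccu
miR-199a-5p and miR-199a-3p are therefore arms of the same hairpins, and the other arm of Mir214 is miR-214-5p.

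The remaining pair of members has its own cluster: Mir145a and Mir143 lie side by side on chromosome 18 inside Carmn, with 0 genes between them in the same annotation. The clusters differed in whether their members were detected. miR-199a-5p, miR-199a-3p and miR-214-3p were detected on 12 of 12 arrays, miR-143-3p on 7 and miR-145a-5p on 0. A probe counted as detected where more than 0.5 of its spots were flagged well above background, and each member has 2 probes with up to 10 spots each. Of all 576 entries, 48 were detected on every array, and a miRNA was tested where 1 or more groups had it on all their arrays, which held for 118. Of the members, 4 of 5 were tested and miR-145a-5p was not. miR-143-3p passed this filter only through the 5x2 Gy group, where all 3 of its arrays were detected, so its difference between 5x2 Gy and other groups is given as a value and supports nothing.

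More miRNAs were detected on brighter arrays. The brightness, taken as the 75th percentile of the signal over 78 probes detected on all arrays, was 345.9, 110.5 and 703.3 intensity units on the control arrays, 316.3, 897.3 and 323.6 after 2 Gy, 388.1, 306.7 and 867.3 after 10 Gy, and 1088, 1102 and 1004 after 5x2 Gy. The 5x2 Gy arrays were thus the brightest, and 120 to 137 miRNAs were detected on them, against 48 to 99 on control arrays. All control and 2 Gy arrays and replicates 1 and 2 of 10 Gy were on 1 slide with 1 scan, while replicate 3 of 10 Gy and all 5x2 Gy arrays were on a second slide with a second scan. The 5x2 Gy and control groups therefore share no slide.

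Both probes of miR-199a-3p were detected on every array, with mean signals of 117 to 1184 and 184 to 2025 intensity units. The probes of miR-199a-5p spanned 73.1 to 868 units (12 arrays) and 14.4 to 173 units (10 arrays). Those of miR-214-3p spanned 12.1 to 230 units (11 arrays) and 36.1 to 514 units (12 arrays). Probes differ in how strongly they bind, so these ranges do not rank the members against each other.

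The miR-143-3p probes were weak, at 4.32 to 65.4 units (detected on 5 arrays) and 6.79 to 90.1 units (7 arrays). The miRNA was detected on 1 of 3 arrays in control cells, 2 of 3 after 2 Gy, 1 of 3 after 10 Gy and 3 of 3 after 5x2 Gy. On the slide that holds the control arrays, its probes reached detection on control replicate 3 and on 2 Gy replicates 2 and 3, and the first 2 of these are the brightest arrays there.

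Neither probe of miR-145a-5p, a smooth muscle regulator that in human stem cells represses pluripotency factors, reached detection. Its second probe gave 12.9, 12.1 and 8.74 units after 5x2 Gy and 3.34 units on replicate 3 of 10 Gy, while the other 8 arrays gave -5.81 to 0.89 units. The first probe gave 6.48, 5.05 and 1.95 units after 5x2 Gy, 1.04 on replicate 3 of 10 Gy and -8.91 to -4.56 on the other 8 arrays. The positive values were on the second slide for the first probe, with 1 further value just above 0 on a bright 2 Gy array for the second. The dimmest probe to be detected on any of the 5x2 Gy arrays was at 19.9 units, so miR-145a-5p was not well above background in any group, and no change is given for it. Its hairpin partner miR-145a-3p was detected on 0 of 12 arrays with 4 probes.

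**Figure D1:**
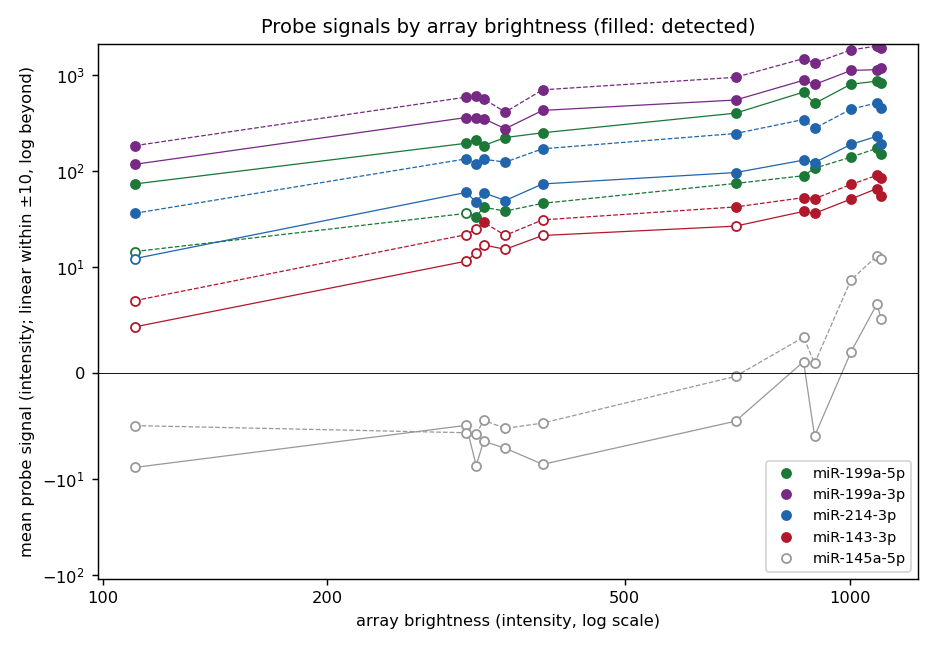
Mean signal of each probe (vertical axis, intensity units, linear within 10 units of 0 and logarithmic beyond) against array brightness (horizontal axis, intensity units, log scale) on 12 arrays. Each line is 1 probe, and filled points were detected. Points of the miR-199a and miR-214 probes are filled on 10 to 12 arrays, those of the miR-143-3p probes on 5 and 7, mostly the brighter ones, and the points of miR-145a-5p are all unfilled, between -8.91 and 12.9 units.

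The passenger and paralogous forms were checked in the same way. miR-214-5p had 1 of 4 probes detected, on 2 Gy replicate 2 (33.5 units) and on the 3 arrays of 5x2 Gy (47.6, 36.4 and 38.2 units), while its other 3 probes were detected on 0 arrays. After scaling it lay at the floor everywhere, so no change is given for it. With a floor set 4 times lower its probe read -5.56, -6.06 and -5.38 on the control arrays, -5.46, -4.74 and -4.71 after 2 Gy, -5.10, -4.995 and -5.40 after 10 Gy, and -4.51, -4.92 and -4.72 after 5x2 Gy (log2 relative to the array brightness). The 5x2 Gy values lay above those of control there, but it was detected on 0 control arrays, and the miRNA passed the filter only through 5x2 Gy. miR-199b-5p, the 5′ arm of the chromosome 2 hairpin, was detected on 12 of 12 arrays. The 3′ arm of the same hairpin is identical to miR-199a-3p, so the array cannot tell those forms apart.

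Marker miRNAs of other cell types were read beside the members. Of 10 epithelial miRNAs, 7 were detected on 0 arrays, among them miR-200a, miR-200b, miR-200c, miR-141 and miR-429, the family that holds epithelial cells in the E-cadherin-positive state. The others, miR-96-5p, miR-182-5p and miR-183-5p of another cluster, were detected on 6, 5 and 1 arrays, beside 7 for miR-143-3p. Of 22 other miRNAs of fibroblasts and mesenchymal cells, 20 were tested and 10 were detected on all arrays, and miR-195a-5p and miR-497a-5p were detected on 0. Of 7 striated muscle miRNAs, 6 were detected on 0 arrays. Of 2 endothelial miRNAs on the array, miR-126a-3p was detected on 3 arrays and miR-126a-5p on 0. Of 4 miRNAs of nerve and liver, 3 were detected on 0 arrays. Of 6 blood cell miRNAs, 4 were at 0 arrays, among them miR-223-3p and miR-451a, which define myeloid and red cells, while miR-142a-3p was detected on all 12. The summed scaled level of the blood cell list ran from 1.05 to 1.61 in control cells, 1.37 to 1.54 after 2 Gy, 0.998 to 1.44 after 10 Gy and 1.01 to 1.37 after 5x2 Gy. For this blood cell list the 2 Gy and 5x2 Gy ranges touched without overlap, and those of all other pairs of groups overlapped. Sums of the other lists are not given here.

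Levels are given from here on as log2 values relative to the array's percentile, so that 0 means a signal equal to that percentile, with a floor at -4.06 below which values have no order. A miRNA's level is the mean of its probes. Changes are differences of group means on this log2 scale, n = 3 against 3, tested with limma across the 118 tested miRNAs with Benjamini-Hochberg adjustment and a threshold of 0.05.

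miR-199a-5p, which represses the hypoxia factor HIF-1α in heart muscle cells, was at -1.91, -1.77 and -2.03 in control cells and at -1.92, -1.95 and -1.89 after 2 Gy. It was at -1.86, -1.87 and -1.83 after 10 Gy and at -1.49, -1.65 and -1.58 after 5x2 Gy. In this mean of 2 probes the 3 arrays of 5x2 Gy lay above all 9 others. The ranges of both single-dose groups fell inside the control range. On the brighter probe, 10 Gy replicate 3 (-0.38) lay above 5x2 Gy replicate 2 (-0.41) and above the control arrays (-0.63, -0.60 and -0.81). On the dimmer probe that 10 Gy array (-3.28) lay below the control arrays (-3.19, -2.94 and -3.25). The level averaged -1.57 ± 0.08 after 5x2 Gy and -1.85 ± 0.02 after 10 Gy. It averaged -1.90 ± 0.13 in control cells and -1.92 ± 0.03 after 2 Gy (SD, n = 3 each). Neighbours in this order of levels overlapped except for 5x2 Gy and 10 Gy.

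miR-199a-3p, a repressor of mTOR and MET in human tumour cells, was at -0.04, 0.41 and 0.04 in control cells and at 0.56, 0.21 and 0.47 after 2 Gy. It was at 0.50, 0.59 and 0.41 after 10 Gy and at 0.49, 0.46 and 0.52 after 5x2 Gy. Control replicate 2 stood as high as the lowest 10 Gy array, and the other control arrays were below every irradiated array. The means were 0.50 ± 0.09 after 10 Gy, 0.49 ± 0.03 after 5x2 Gy, 0.41 ± 0.18 after 2 Gy and 0.14 ± 0.24 in control cells, and all neighbours in this order overlapped.

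miR-214-3p, which represses Ezh2 in mouse muscle, was at -2.15, -2.40 and -2.19 in control cells and at -2.08, -2.28 and -1.87 after 2 Gy. It was at -1.80, -1.78 and -2.04 after 10 Gy and at -1.66, -1.90 and -1.79 after 5x2 Gy. Every array with 10 Gy in total, given at once or in fractions, lay above every control array, whereas the 2 Gy arrays overlapped with control. The means were -1.78 ± 0.12 after 5x2 Gy, -1.87 ± 0.14 after 10 Gy, -2.08 ± 0.21 after 2 Gy and -2.25 ± 0.13 in control cells, with overlap between all neighbours in this order.

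miR-143-3p, which represses ERK5 in human cells, was at -4.05, -4.04 and -4.06 in control cells and at -3.87, -4.06 and -3.77 after 2 Gy. It was at -3.86, -3.95 and -4.05 after 10 Gy and at -3.82, -3.88 and -3.93 after 5x2 Gy. These levels were at or just above the floor on all arrays, and the control arrays had almost no spread because the floor took it away. With a floor set 4 times lower the control arrays read -4.27, -4.35 and -4.40, the 2 Gy arrays -4.09, -4.38 and -3.87, the 10 Gy arrays -3.93, -4.29 and -4.28, and the 5x2 Gy arrays -3.82, -4.01 and -4.05. The means with the floor as set were -3.88 ± 0.05 after 5x2 Gy, -3.90 ± 0.15 after 2 Gy, -3.95 ± 0.10 after 10 Gy and -4.05 ± 0.01 in control cells, and all neighbours in this order overlapped.

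**Figure D2:**
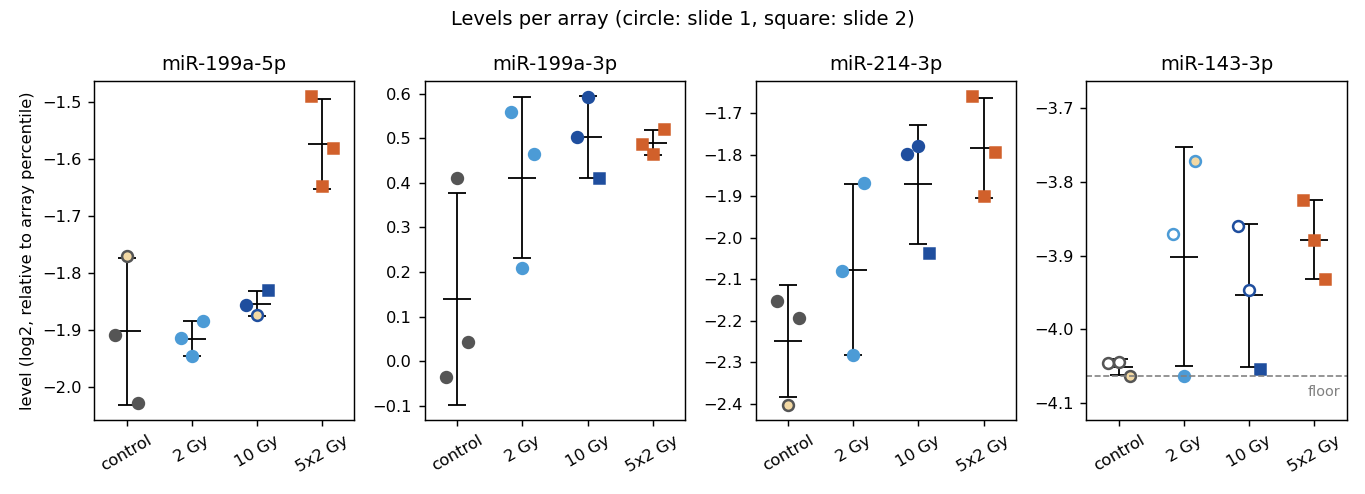
Level of each tested member on every array (vertical axis, log2 relative to the array's percentile, with its own range in each panel) by group (horizontal axis). Circles are arrays of slide 1, squares arrays of slide 2, filled points had both probes detected, pale centres 1 probe and open points none, and bars are the mean ± SD of 3 arrays. miR-199a-5p is high on the 5x2 Gy arrays at -1.65 to -1.49, miR-199a-3p and miR-214-3p rank higher in irradiated groups by mean, and miR-143-3p stays near the floor of -4.06.

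Against control, members were called after 5x2 Gy, and after neither single dose. In RNA of a whole culture, more cells making a miRNA and more of it per cell cannot be told apart. miR-199a-5p rose by 0.33 (SE 0.06, 95% interval 0.19 to 0.47, 1.26-fold, limma adjusted p = 0.0103) and miR-214-3p by 0.46 (SE 0.12, interval 0.18 to 0.74, 1.38-fold, limma adjusted p = 0.0407). miR-199a-3p differed by 0.35 (limma adjusted p = 0.114) and miR-143-3p by 0.17 (limma adjusted p = 0.154). Thus 2 of the 4 tested members were called higher and 0 lower, where 12.7% of all tested miRNAs (15 of 118) were called, all of them higher. That background moved with the setting: 1 miRNA was called with the slide as a block, 9 (1 of them higher) with normexp correction at an offset of 1, 5 (0 higher) at an offset of 50, and 7 without 5x2 Gy replicate 2. In the 3 members detected on every array the 5x2 Gy arrays lay above the control arrays without overlap, as did those of 28% of tested miRNAs. The tested miRNAs include 19 at the floor on every array, which cannot separate. This share and those below are therefore not of a set detected like these members.

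These rises stand beside a general shift. The median change of the 118 tested miRNAs was 0.00, but that of the 71 miRNAs above the floor on every array was 0.17. Both probes of miR-199a-5p differed by the same amount, 0.33 and 0.33. Those of miR-199a-3p gave 0.31 and 0.39, and those of miR-214-3p gave 0.57 and 0.36, where the first is the dimmer probe, undetected on control replicate 2. For miR-143-3p 1 probe gave 0.00, because it sat at the floor, and the other 0.34.

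Slide and brightness moved with this comparison. With the slide as a block, which links the slides through the 10 Gy arrays alone, the change of miR-199a-5p was 0.29 (limma adjusted p = 0.313) and that of miR-214-3p 0.71 (limma adjusted p = 0.254), so neither was called. With array brightness as a covariate the change of miR-199a-5p was 0.43 (limma adjusted p = 0.0067) and that of miR-214-3p 0.53 (limma adjusted p = 0.0638). That of miR-199a-3p was 0.63 (limma adjusted p = 0.0026), and 28 of 118 tested miRNAs were called with this covariate. The miR-214-3p call was lost without any 1 of 9 arrays (each control array, each 5x2 Gy array, 2 Gy replicate 1, and 10 Gy replicates 1 and 2), with limma adjusted p up to 0.137 and changes of 0.39 to 0.52. miR-199a-5p passed without each of the 12 arrays in turn, but not in a fit on the control and 5x2 Gy arrays alone (limma adjusted p = 0.0944).

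**Figure D3:**
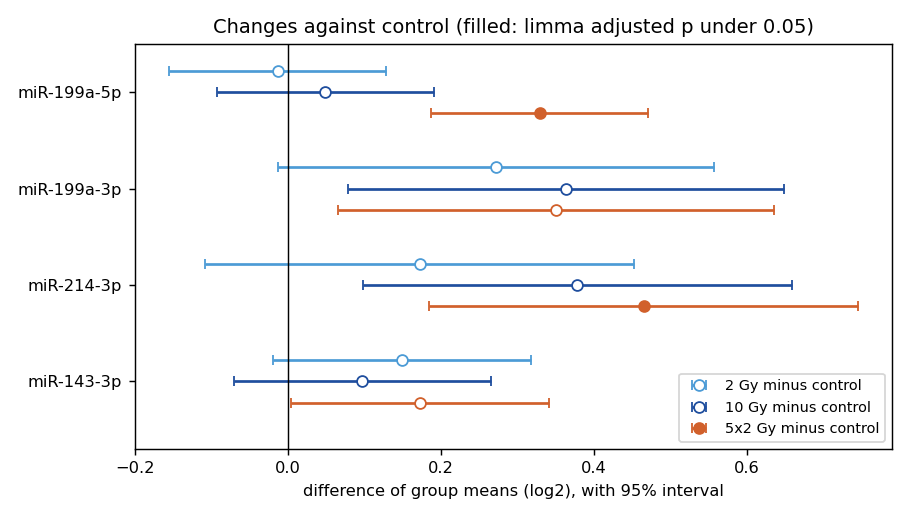
Difference of group means against control (horizontal axis, log2) for the 4 tested members (rows), with 95% intervals from limma, for 2 Gy, 10 Gy and 5x2 Gy. Filled points have an adjusted p under 0.05. The 5x2 Gy changes of miR-199a-5p (0.33) and miR-214-3p (0.46) are filled, and the 2 Gy and 10 Gy changes of miR-199a-5p lie close to 0.

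After a single dose of 10 Gy, 0 of 4 members were called, where 0.847% of tested miRNAs were called (1 of 118, and 24 at an unadjusted p under 0.05). miR-214-3p differed from control by 0.38 (SE 0.12, interval 0.10 to 0.66, limma adjusted p = 0.209), without overlap of the arrays, which 8.47% of tested miRNAs also showed in this direction. miR-199a-3p differed by 0.36 (SE 0.12, interval 0.08 to 0.65, limma adjusted p = 0.236), miR-199a-5p by 0.05 (limma adjusted p = 0.738) and miR-143-3p by 0.10 (limma adjusted p = 0.556).

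Within the first slide, which holds 2 of the 10 Gy arrays and all control arrays, the differences were 0.46 for miR-214-3p, 0.41 for miR-199a-3p and 0.04 for miR-199a-5p, again with no call (limma adjusted p = 0.358, 0.358 and 0.917). miR-199a-3p passed once 1 control array was left out. Leaving out each of the 12 arrays in turn gave changes of 0.28 to 0.50 after 10 Gy, with limma adjusted p up to 0.568. Control replicate 2 was the dimmest array and held the highest control level of miR-199a-3p (0.41, beside -0.04 and 0.04). Without it, miR-199a-3p differed by 0.50 after 10 Gy (limma adjusted p = 0.0211), where 7 of 118 were called. In that fit it differed by 0.49 after 5x2 Gy (limma adjusted p = 0.0198), where 15 of 118 were called. With brightness as a covariate it differed by 0.46 after 10 Gy (limma adjusted p = 0.0056), where 26 of 118 tested miRNAs were called.

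After 2 Gy, 0 of 4 members were called, beside 0% of all tested miRNAs (11 at an unadjusted p under 0.05). miR-199a-3p differed by 0.27 (limma adjusted p = 0.518), miR-214-3p by 0.17 (limma adjusted p = 0.640), miR-143-3p by 0.15 (limma adjusted p = 0.518) and miR-199a-5p by -0.01 (limma adjusted p = 1). All 4 overlapped with control. With brightness as a covariate miR-199a-3p passed, at 0.36 (limma adjusted p = 0.0196), where 6 of 118 tested miRNAs were called.

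The question of dose was put as a slope over the control, 2 Gy and 10 Gy arrays, 9 in all. No member passed, as 0% of tested miRNAs did (7 at an unadjusted p under 0.05). The slope of miR-214-3p was 0.0343 log2 units per Gy (SE 0.0120, limma adjusted p = 0.532) and that of miR-199a-3p 0.0292 (limma adjusted p = 0.661). Those of miR-199a-5p and miR-143-3p were 0.0057 (limma adjusted p = 0.722) and 0.0051 (limma adjusted p = 0.879).

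The comparison of 5x2 Gy with 10 Gy sets the same total dose in fractions against that dose at once. Fractions follow each other in time, so the time since irradiation is not the same for all of the 5x2 Gy dose. Its part in this contrast was not tested. miR-199a-5p was higher after 5x2 Gy than after 10 Gy by 0.28 (interval 0.14 to 0.42, limma adjusted p = 0.0503), without overlap, where 25.4% of tested miRNAs were also higher without overlap and 2.54% were called. That adjusted p misses the threshold, so 0 of 4 members were called. On the second slide alone the 3 arrays of 5x2 Gy stood 0.26 above the 1 array of 10 Gy, with no test. The 2 probes disagreed there. The brighter probe, detected on all 12 arrays, read -0.38 on that 10 Gy array and -0.33, -0.41 and -0.31 after 5x2 Gy, with overlap. The dimmer probe read -3.28 on it and -2.66, -2.89 and -2.85 after 5x2 Gy. miR-199a-5p was called without control replicate 2 (limma adjusted p = 0.0199) or 3 (limma adjusted p = 0.0272). These arrays are not in the contrast and act only through the shared spread. miR-199a-3p, miR-214-3p and miR-143-3p overlapped between these groups and were not called.

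Against a single fraction, miR-199a-5p was higher after 5x2 Gy than after 2 Gy by 0.34 (limma adjusted p = 0.0138), the 1 member called where 4.24% of tested miRNAs were called higher. Its arrays did not overlap, as in 24.6% of tested miRNAs in this direction, and those of the other 3 tested members did. The call was lost without 5x2 Gy replicate 1 (limma adjusted p = 0.0639) or 3 (limma adjusted p = 0.0559), and with the slide as a block the difference was 0.31 (limma adjusted p = 0.581). Between 10 Gy and 2 Gy, 0 members were called, as were 0% of tested miRNAs (2 at an unadjusted p under 0.05). The arrays of miR-199a-5p did not overlap there, nor in this direction did those of 4.24% of tested miRNAs. The difference of miR-199a-5p was 0.06, and its 2 probes went opposite ways, by 0.18 and -0.06.

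Over all 4 groups together, the F test called miR-199a-5p (limma adjusted p = 0.0281), 1 of 4 members, where 5.93% of tested miRNAs were called. miR-214-3p (limma adjusted p = 0.151), miR-199a-3p (limma adjusted p = 0.280) and miR-143-3p (limma adjusted p = 0.402) did not pass. The F call of miR-199a-5p was lost on leaving out any array other than control replicate 2 or 3.

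Arms of one hairpin and neighbours on one transcript were then compared on the same array, which removes the scaling factor of the array. The difference between the arms, miR-199a-5p minus miR-199a-3p, deviated from the control mean by -0.29 after 2 Gy, by -0.31 after 10 Gy and by -0.02 after 5x2 Gy. The deviations of single arrays ran from -0.14 to 0.17 in control cells, -0.43 to -0.11 after 2 Gy, -0.43 to -0.20 after 10 Gy and -0.07 to 0.07 after 5x2 Gy. The 10 Gy arrays lay below all control arrays and below all 5x2 Gy arrays. The 2 Gy arrays also lay below all 5x2 Gy arrays but overlapped with control. How often other pairs of miRNAs separate in this way was not counted. An exact permutation test over the 15400 divisions of the 12 arrays gave p = 0.0373 for a difference among the groups, and 0.112 after adjustment over the 3 pairs compared.

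The other pairs showed less. For miR-199a-5p minus miR-214-3p the deviations averaged -0.19 after 2 Gy, -0.33 for 10 Gy and -0.14 for 5x2 Gy, and the exact permutation p was 0.232 (adjusted 0.349). For miR-199a-3p minus miR-214-3p they averaged 0.10 after 2 Gy, -0.01 for 10 Gy and -0.11 for 5x2 Gy, and the exact permutation p was 0.704 before and after adjustment. In both pairs control replicate 2 stood farthest above the control mean, and every irradiated group overlapped with control.

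**Figure D4:**
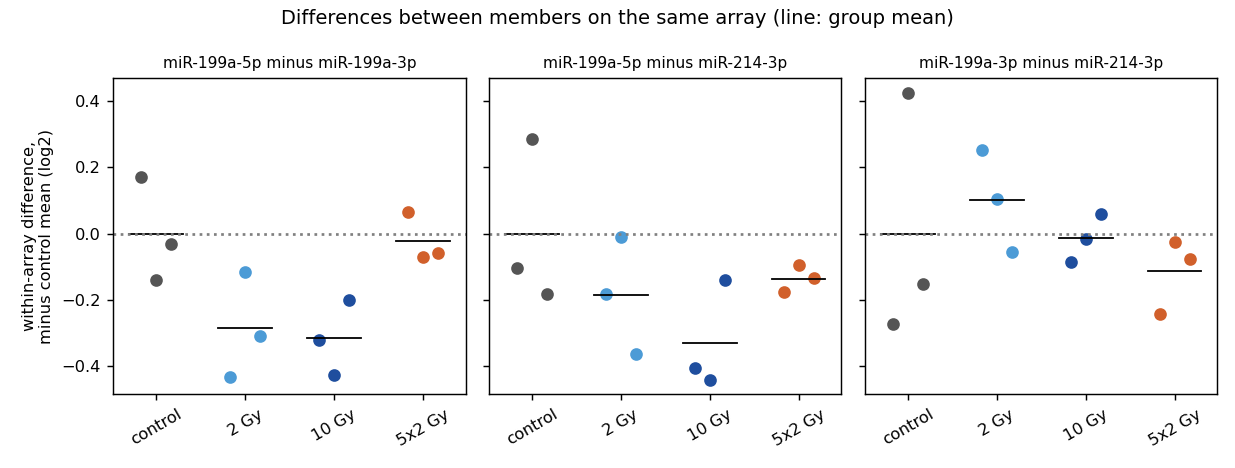
Within-array difference between 2 members, minus its mean on the control arrays (vertical axis, log2), by group (horizontal axis), with 1 point an array and a line at the group mean. For the arms of miR-199a the mean is -0.29 after 2 Gy, -0.31 after 10 Gy, with all 3 arrays of 10 Gy below control, and -0.02 after 5x2 Gy.

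The locus behind a change can be read only in part. miR-199b-5p, made only by Mir199b but close in sequence to miR-199a-5p, averaged -1.30 ± 0.14 in control cells, -1.21 ± 0.13 after 2 Gy, -1.27 ± 0.06 with 10 Gy and -1.11 ± 0.10 with 5x2 Gy (SD, n = 3 each). Its change was 0.09 after 2 Gy (limma adjusted p = 0.804), 0.04 after 10 Gy (limma adjusted p = 0.934) and 0.19 after 5x2 Gy (limma adjusted p = 0.175), and each irradiated group overlapped with control. The share of each locus in the miR-199a-3p signal, and any cross-hybridisation between the 5p probes, was not tested.

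The other mesenchymal miRNAs were compared in the same way. Of 20 tested, 2 were called higher after 5x2 Gy than in control cells and 0 lower, beside the 12.7% of all tested: miR-24-3p by 0.32 (limma adjusted p = 0.0453), and miR-100-5p by 0.23 (limma adjusted p = 0.0074) from a control mean near the floor. The median change of the 20 was 0.18, beside 0.00 for all 118 tested and 0.17 for those above the floor, and 10 of the 20 were detected on every array. miR-100-5p was also called against 10 Gy (0.20, limma adjusted p = 0.0470) and against 2 Gy (0.25, limma adjusted p = 0.0097). It was detected on 6 of 12 arrays. Its means of -4.04 in control cells, -4.06 after 2 Gy and -4.01 after 10 Gy lay at or near the floor of -4.06. The floor takes spread away there, so the calls of miR-100-5p support nothing. In the comparisons of 2 Gy and of 10 Gy with control 0 of 20 were called, with medians of 0.06 and 0.05.

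The miRNAs whose levels ran most like those of a member over the 12 arrays were found among 70 others above the floor on every array. For miR-199a-5p these were miR-125a-5p (Pearson r = 0.88, Spearman rho = 0.80), let-7i-5p (r = 0.74, rho = 0.64) and let-7c-5p (r = 0.73, rho = 0.85). For miR-199a-3p they were miR-34c-5p (r = 0.95, rho = 0.93), miR-10b-5p (r = 0.89, rho = 0.90) and let-7e-5p (r = 0.89, rho = 0.72). For miR-214-3p they were miR-34b-5p (r = 0.86, rho = 0.84), miR-125b-5p (r = 0.77, rho = 0.76) and miR-24-3p (r = 0.75, rho = 0.76). Without the 2 arrays farthest from the median of the member, r was 0.76 for miR-199a-5p with miR-125a-5p and 0.95 for miR-199a-3p with miR-34c-5p. For miR-214-3p it was 0.83 with miR-34b-5p and 0.90 with miR-125b-5p, so their order turned.

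Among themselves the members ran less alike than these miRNAs, which were picked for the highest r among 70. The r was 0.59 between miR-199a-3p and miR-214-3p, 0.56 between miR-199a-5p and miR-214-3p, and 0.48 between the arms of miR-199a. Among the 70 miRNAs compared, the closest partner from the cluster ranked 13 for miR-199a-5p, 20 for miR-199a-3p and 10 for miR-214-3p. The points of all these correlations share their array, its scaling and its group, and no test was made. Against array brightness over the 12 arrays, r was 0.37 for miR-199a-5p, -0.06 for miR-199a-3p, 0.40 for miR-214-3p and 0.05 for miR-143-3p, beside a median of 0.26 for the 71 miRNAs above the floor. On the 8 arrays of the first slide r was -0.87 for miR-199a-5p, so there the brighter arrays had the lower level, and 0.07 for miR-214-3p.

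How far the 5x2 Gy changes depend on the scaling is shown by setting. Where no scaling was used, or scaling that leaves the brightness in, all 4 members were called, as were 84 to 102 of the 118 tested miRNAs. Among these, the call of miR-143-3p supports nothing, since it passed the filter only through 5x2 Gy. The rises were 1.77 to 2.18 for the miR-199a arms and miR-214-3p and 1.16 to 2.02 for miR-143-3p, while the miRNAs above the floor moved by 1.64 to 1.80 in the median. With median scaling the changes of miR-199a-5p and miR-214-3p were 0.11 (limma adjusted p = 0.458) and 0.25 (limma adjusted p = 0.345). With normexp background correction at an offset of 50 they were -0.17 (limma adjusted p = 0.495) and -0.18 (limma adjusted p = 0.532), where the miRNAs above the floor moved by -0.30 in the median, and miR-199a-3p kept a difference of 0.36 (limma adjusted p = 0.0718).

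**Figure D5:**
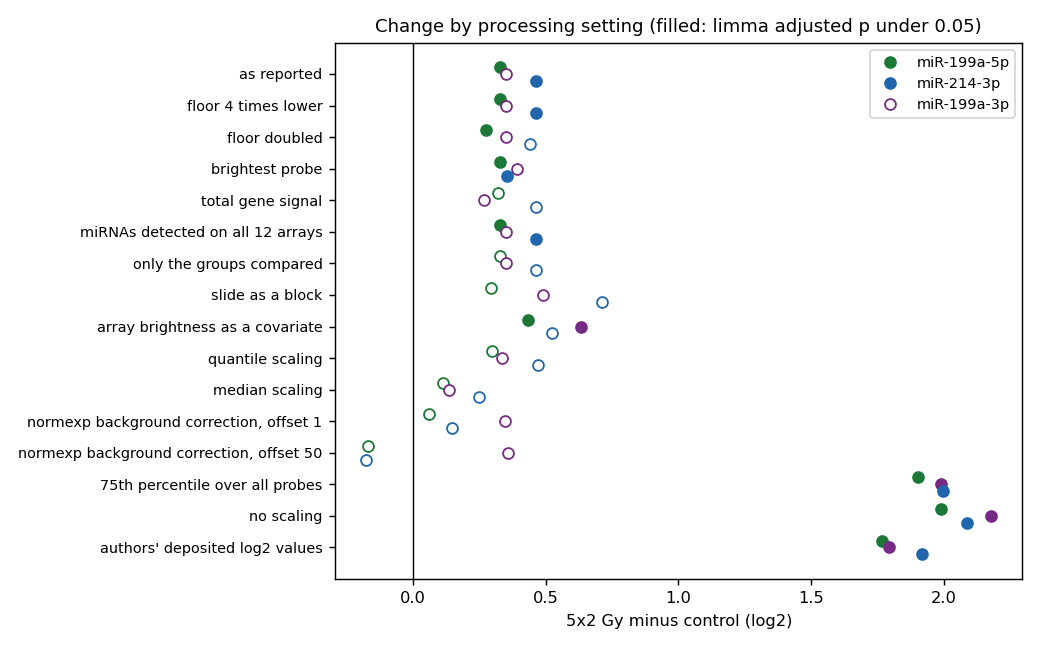
Change between 5x2 Gy and control (horizontal axis, log2) for 3 members under 16 processing settings (rows), filled where the limma adjusted p is under 0.05. Settings that leave array brightness in the values give changes near 2 for all 3, most others give changes between 0.06 and 0.71, and normexp correction with an offset of 50 turns miR-199a-5p and miR-214-3p to -0.17 and -0.18.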

How the data were processed

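Spot intensity is deposited in scanner files. Per the submitters' processing notes they come from version 10.7.3.1 of Agilent Feature Extraction. The processed signal is background-subtracted and detrended, per the file headers, which name mm9 for the array design. Spots carry flags with a value of 0 or 1, deposited as the scanner software wrote them. The series table, deposited by the authors on a log2 scale, served as an alternative. Within 1e-04 it equals the log2 processed signal (values under 1 raised to 1) plus an array constant, and its column medians run from -0.19 to 1.14.

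Of 12493 spots per array, 953 control spots and outlier spots (2.04 to 4.95%) were dropped. None of the rest was saturated (0 spots). The mean over each of the 1712 probes was divided by the brightness of the array (the 75th percentile of 78 probes), set to a floor of 0.0598 of that percentile and taken to log2. Probes detected on at least 3 arrays were averaged per miRNA. limma 3.58.1 in R 4.3.3 was fitted to all 12 arrays with no covariates (8 residual and 0.45 prior degrees of freedom) and was tested on simulated data. Tests were two-sided, with intervals at 95%. Precision is limited by the number of arrays, and p-values measure the spread between them, which may be partly technical.

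The text names all members, their hairpin partners and paralogues, the 3 most alike miRNAs of each member above the floor, and the called miRNAs of the other mesenchymal list. Lists and members were chosen with earlier results of these data known. The files hold no mean spot signal, so normexp used the median spot and background signals. Replicate numbers were not used to pair arrays. Over 18 pairs of arrays with the same number, correlations of deviations had a median of -0.05 (-0.90 to 0.78). Over 36 other pairs the median was 0.02 (-0.75 to 0.87). Ranges this wide cannot tell whether replicates were paired. Sequences are from RefSeq (GRCm38.p6), with no coordinates since the builds differ. Those of miR-143-3p and miR-145a-5p are not used here. Figures were drawn with matplotlib 3.10.9.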

Additional observations from a re-analysis of the deposited data

How the results depend on the processing

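Values here are log2 changes or counts of called members. Alternatives with total gene signal, with normexp at an offset of 1, and without miRNAs at the floor on all arrays were chosen after seeing the data. Signal over background limits miR-143-3p, which lay near it, and miR-145a-5p, which was not well above it, and a doubled floor left no value for miR-143-3p. The cause of the shifts below was not tested.

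For 5x2 Gy against control (2 members called) 4 were called with the percentile over all probes, no scaling or the authors' table, 1 with the floor doubled, the replicate block or the compared groups only, and 0 with quantile or median scaling, both normexp offsets, total gene signal, no filter or the slide block. With the replicate block miR-199a-5p kept its call (limma adjusted p = 0.0373) and miR-214-3p did not (limma adjusted p = 0.061), and 0 members were called in 5x2 Gy against 2 Gy and in the F test. The 1 call of the compared groups alone was miR-143-3p, which passed the filter only through 5x2 Gy and has floored control values, so this call supports nothing. miR-199a-5p lost its call there (limma adjusted p = 0.0944). Leaving out 1 array gave 1 to 2 members, where 7 to 16 of the 118 tested miRNAs were called. The percentile over all probes, no scaling and the authors' table called 102, 86 and 84 of the 118.

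For 5x2 Gy against 2 Gy (1 called) the percentile over all probes gave 4, and 0 came from quantile or median scaling, both normexp offsets, the floor 4 times lower, the brightest probe, the authors' table, total gene signal, no filter and the slide block. Leaving out 1 array gave 0 to 1. The percentile over all probes called 109 of the 118 tested miRNAs there. For 5x2 Gy against 10 Gy (0 called) it gave 4 members, where 90 of 118 were called. No scaling and the brightness covariate gave 1 each, where 24 and 4 of 118 were called, with 0 to 1 on leaving out 1 array. With the brightness covariate 10 Gy and 2 Gy against control gave 1 each, where 26 and 6 of 118 were called. For these, leaving out 1 array gave 0 to 1 and 0. The F test (1 called) gave 4 with the percentile over all probes and 2 with the brightness covariate, where 86 and 14 of 118 were called. It gave 0 under the other alternatives run, and 0 to 2 on leaving out 1 array. The slope and 10 Gy against 2 Gy gave 0 under all alternatives run. Of the within-array differences 0 passed, but 1 did with either normexp offset, and 0 on leaving out 1 array.

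The direction turned with normexp at an offset of 50 in 5x2 Gy against control for miR-199a-5p (-0.17), miR-214-3p (-0.18) and miR-143-3p (-0.91), and for miR-199a-5p in 5x2 Gy against 10 Gy (-0.0536) and against 2 Gy (-0.0089). It turned in 10 Gy against control for miR-199a-5p (-0.12), miR-214-3p (-0.0203) and miR-143-3p (-0.33), in 2 Gy against control for miR-214-3p (-0.10) and miR-143-3p (-0.26), and in the slopes of miR-199a-5p (-0.0067) and miR-143-3p (-0.026). At an offset of 1 it turned for miR-143-3p after 5x2 Gy (-0.53), 10 Gy (-0.18) and 2 Gy (-0.14) and in its slope (-0.014), and for miR-199a-5p after 10 Gy (-0.0351). Median scaling turned miR-199a-5p after 10 Gy (-0.0382) and its slope (-0.0013). The change of miR-199a-5p after 2 Gy, -0.01, was 0.0936 with the percentile over all probes, 0.0939 with total gene signal, 0.16 with quantile scaling, 0.41 with no scaling, 0.37 in the authors' table and 0.0200 with the brightness covariate. Leaving out 1 array gave -0.0764 to 0.0527 for it after 2 Gy and -0.0146 to 0.115 after 10 Gy. miR-199a-3p kept its direction against control under all alternatives run.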
